A study of Mus musculus with 6 samples.

Results

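Interferon-stimulated antiviral genes are a set of 41 named mouse genes that cells switch on when they sense interferon, followed here across 6 RNA-seq libraries of gastrocnemius, the large calf muscle. The genes were matched by symbol to the Ensembl identifiers of a count table of 57010 genes. All 41 were found there, and all 41 passed the filter on low counts among 15589 genes tested. Each library comes from 1 untreated mouse aged 3 months, with 3 controls labelled as wild-type C57BL/6 and 3 mutants of the BLAJ line (B6.A-Dysfprmd/GeneJ, genotype Dysfprmd/Dysfprmd). BLAJ mice carry the prmd insertion of strain A/J in Dysf on a C57BL/6 background, so the loss of dysferlin, a membrane repair protein of the muscle fibre, is inherited and not limited to muscle. The animals were male except mutant replicates 1 and 2, which were female. The labels do not say whether controls and mutants were littermates.

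The targeted gene followed the labels. Dysf (ENSMUSG00000033788) had 72.3, 99.8 and 145 CPM in the control animals against 15.8, 14.7 and 20.3 CPM in the mutants (CPM, the count per 1000000 read pairs of the scaled library size), and fell by 2.64 on the log2 scale (SE 0.28, edgeR adjusted p = 0.0249). Over the alternatives the adjusted p of Dysf ran from 1.61e-16 with DESeq2 to 0.998 with edgeR in the males alone, and by edgeR it did not pass when any 1 mutant was left out (0.0637 to 0.228) or with sex as a covariate (0.546). All controls were male, so the fit of the males and the fit with sex both set the controls against 1 mutant, replicate 3, and by edgeR neither called any gene. The log2 fold change stayed between -2.86 and -2.35. The strain of the controls is less certain. The histocompatibility gene H2-Ea-ps, which C57BL/6 mice do not express, had 95, 152 and 123 read pairs in the controls and 1, 0 and 0 in the mutants. The interferon-inducible gene Ifi202b, also silent in C57BL/6, had 308, 45 and 103 read pairs in the controls and 0 in each mutant. A count of 0 allows up to 3 counts, here 0.0763 to 0.0827 CPM, from counting error alone. Both genes contradict the C57BL/6 label of the control animals, so strain and loss of dysferlin cannot be told apart in any difference between the groups. Library totals ran from 35042245 to 43733641 read pairs. Control replicate 1 stood apart with 9.78% multimapping pairs (5.83% to 7.52% elsewhere) and 9.75% mitochondrial counts (4.28% to 6.96% elsewhere). It is also named differently: the column names of control replicates 2 and 3 share the word black, and that of control replicate 1 lacks it. The labels do not say what the word stands for. Whether this naming goes with the differences between controls described below was not tested. The 7 muscle fibre markers made up 101878 to 138745 CPM in each library, matching the tissue label.

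Interferons are secreted proteins that bind receptors on neighbouring cells and activate the JAK kinases. In the type I pathway the kinases phosphorylate transcription factors, STAT2 among them, which join IRF9 to form the complex ISGF3 and enter the nucleus. ISGF3 binds the interferon-stimulated response element (ISRE) in the promoters of its target genes, while interferon gamma acts through the gamma-activated site (GAS). The products of the target genes sense viral RNA, degrade it, block its translation or tag proteins with ISG15. In muscle these genes are best known from the inflammatory myopathy dermatomyositis, where they are strongly induced in the fibres.

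Promoter sequences show which of these elements the genes carry. RefSeq promoters (GRCm38.p6, 250 bases before to 50 after the annotated gene start) matched 31 of the 41 genes, with 37 promoters. The core of the ISRE was searched as GAAANNGAAA, which reads TTTCNNTTTC on the other strand, and the core of the GAS as TTCNNNGAA, which is its own reverse complement. The 2 patterns were searched separately, so matches may overlap, as they do in the Bst2 promoter. At least 1 ISRE core lay in 18 of the 31 genes (58.1%), compared with 3.99% of 27025 genes with a promoter of that length. A GAS core lay in 10 of the 31 (32.3%), compared with 9.55%. In Ifih1, Ddx58 and Eif2ak2 the ISRE core lay after the gene start. A match is a description of the letters and not evidence of binding. The following stretches are shown because the genes behind them range from the widest to the narrowest spread between animals described below. Each reads 5′ to 3′ along the gene's strand, with 1 motif in capitals. Further matches are not marked: ISRE cores in the Ifit1 and Isg15 stretches and a GAS core in the Igtp stretch. The first 6 show an ISRE core and the last 2 a GAS core.
Ifit1, chr19:34640779-34640838 (+ strand): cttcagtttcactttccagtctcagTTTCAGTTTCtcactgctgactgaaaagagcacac
Ifit3, chr19:34583382-34583441 (+ strand): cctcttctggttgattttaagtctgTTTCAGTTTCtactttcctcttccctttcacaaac
Oas3, chr5:120777700-120777759 (- strand): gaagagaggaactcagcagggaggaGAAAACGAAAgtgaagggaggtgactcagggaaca
Isg15, chr4:156200856-156200915 (- strand): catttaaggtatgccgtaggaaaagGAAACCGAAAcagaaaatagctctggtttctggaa
Rsad2, chr12:26456538-26456597 (- strand): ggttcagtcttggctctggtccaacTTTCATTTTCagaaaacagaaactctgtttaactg
Igtp, chr11:58199497-58199555 (+ strand): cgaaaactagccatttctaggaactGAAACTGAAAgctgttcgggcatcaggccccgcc
Irf1, chr11:53769899-53769957 (+ strand): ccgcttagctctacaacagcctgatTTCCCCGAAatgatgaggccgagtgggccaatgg
Samhd1, chr2:157135298-157135346 (- strand): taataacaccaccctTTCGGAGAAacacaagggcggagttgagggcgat
The Ifit1, Ifit3 and Rsad2 motifs lie on the strand opposite to the gene, and the Ifit3b promoter holds the same 60 bases as shown for Ifit3, at chr19:34607778-34607837. The Samhd1 and Irf1 promoters hold no match to the ISRE core in this window.

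No gene of the set passed the test between mutants and controls. Of the 41, 0 passed edgeR's quasi-likelihood test at an adjusted p below 0.05, where 0.199% of all genes tested passed (31 of 15589). At an unadjusted p below 0.05 there was 1, Ifi35, against 6.94% of all genes. DESeq2 called 0 of the 41 against 1.18% of all genes, and 2 of the 41 had an unadjusted p below 0.05 (7.49% of all). Limma-voom called 0 against 0.148%, with 1 at an unadjusted p below 0.05 (6.5% of all). By the authors' deposited table none of the 41 passed the same threshold, against 0.998% of its genes, and their smallest adjusted p was 0.366. The median log2 fold change (mutant minus control) over the 41 genes was -0.13, with 30 below 0, while 50.2% of all genes tested lay below 0. That direction depended on the fit and on single libraries. The median was 0.058 with 24 above 0 by limma-voom, 0.055 with 22 above 0 with the replicate number as a block, and 0.013 with 21 above 0 without mutant replicate 1. The groups did not overlap in 1 of the 41, compared with 12.1% of all genes tested. That count was 6 without control replicate 1 (25.2% of all) or control replicate 2 (24.0%), 5 without mutant replicate 3 (24.7%), and 2 without control replicate 3 (22.1%) or mutant replicate 2 (21.1%).

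What varied was the level between animals, first of all between controls. Control replicate 1 was the highest of the 6 libraries in 28 of the 41 genes (19.8% of all genes tested), and control replicate 2 was the lowest in 27 (20.6% of all). The controls stood in the order 1, 3, 2 from high to low in 31 genes (20.5% of all), and in 23 genes all 3 mutants lay between the lowest and the highest control (25.6% of all). Relative to each gene's mean over the 6 libraries, the median gene stood at 0.84 on the log2(CPM + 0.1) scale in control replicate 1, -0.68 in control replicate 2 and -0.13 in control replicate 3. The mutants stood at -0.25, 0.11 and 0.23. The same median over all genes tested stayed between -0.012 and 0.015, but the scaling of library sizes keeps that median near 0 by design.

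**Figure D1:**
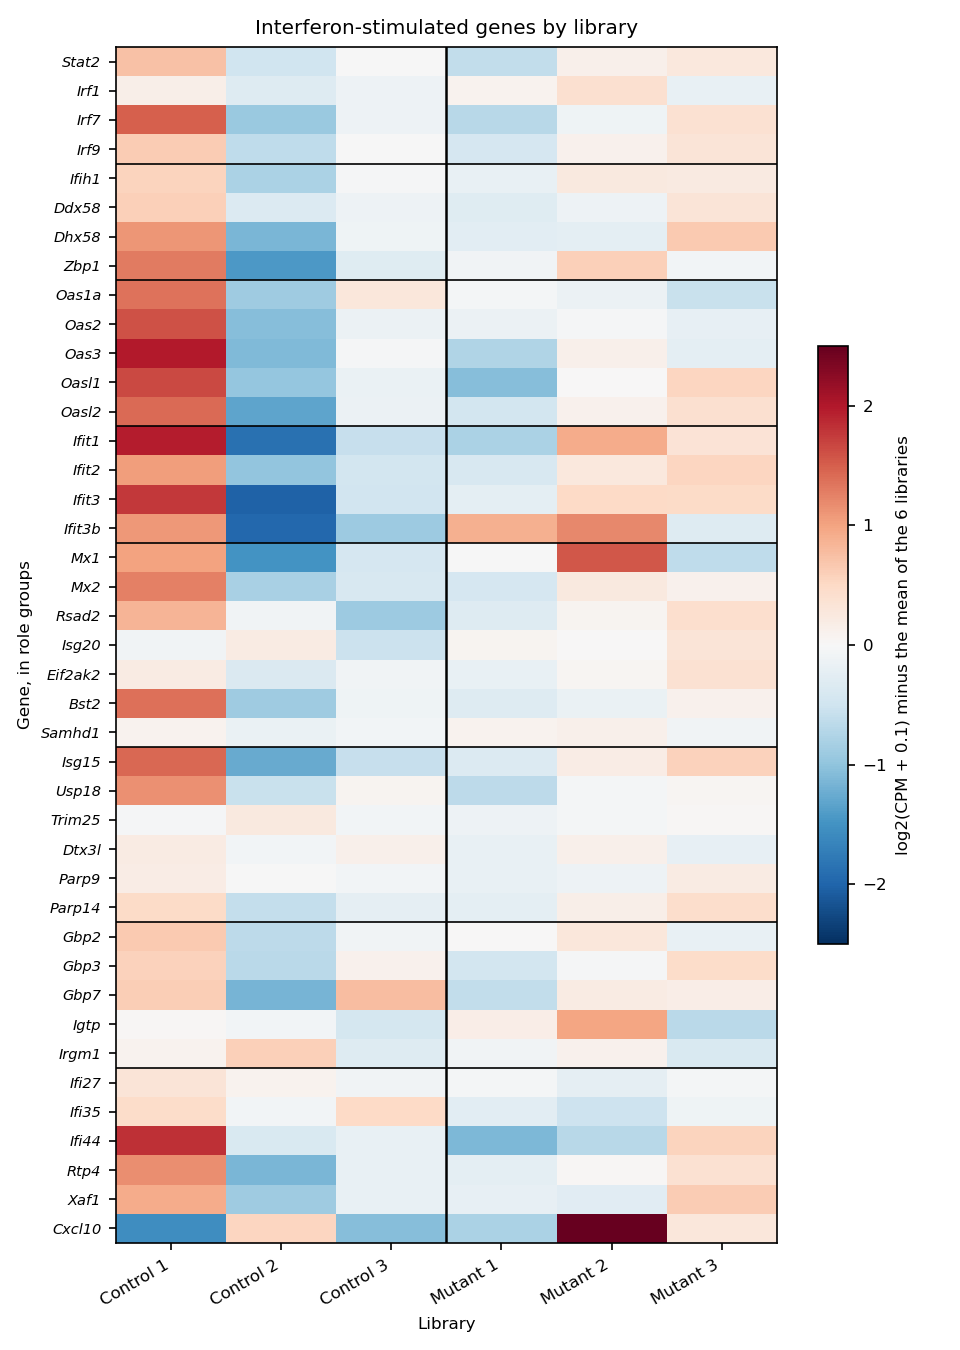
Heat map of the 41 interferon-stimulated genes (rows, in role groups) in the 6 libraries (columns), coloured by log2(CPM + 0.1) minus the gene's mean over the 6 libraries. Control 1 is red and control 2 blue through most groups, the mutant columns are paler, and the bottom row, Cxcl10, runs the other way with its highest value in mutant 2.

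The ratio of the highest to the lowest control had a median of 3.63 over the 41 genes, from 1.18 to 14.9, and the ratio among the mutants a median of 1.68. Among genes with a mean of at least 1 CPM, the controls spanned at least 3-fold in 19 of 37 interferon-stimulated genes, compared with 7.03% of 12722 genes. They spanned at least 5-fold in 12 of 37, compared with 2.83%. The mutants spanned at least 3-fold in 4 of 37 (3.81% of all) and at least 5-fold in 0 of 37 (1.25% of all). The sign of the group difference turned with the control left out: the median log2 fold change was 0.39 without control replicate 1, with 34 genes higher in the mutants, and -0.32 without control replicate 2, with 33 lower. Without control replicate 1, 0 of the 41 passed edgeR's adjusted threshold (0.238% of all genes) and 4 had an unadjusted p below 0.05 (9.53% of all). Without control replicate 2, 0 passed (0.309% of all) and 5 had an unadjusted p below 0.05 (8.15% of all).

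The transcription factors that carry the signal open the list. Stat2, which codes for a subunit of ISGF3, had 16.1, 6.82 and 9.69 CPM in the controls and 6.26, 10.7 and 11.7 CPM in the mutants. Irf9, the DNA-binding subunit of the same complex, had 15.8, 6.55 and 10.1 CPM in the controls and 7.56, 10.9 and 12.6 CPM in the mutants. In both genes control replicate 1 was highest, and the mutant values lay inside the range of the controls in Irf9 and reached just below it in Stat2. Their log2 fold changes were -0.18 (SE 0.36) and -0.063 (SE 0.34), with edgeR adjusted p = 0.957 and 0.987. Irf7, which amplifies type I interferon production and is itself induced by interferon, had 21.7, 3.96 and 6.99 CPM in the controls and 4.73, 7.11 and 10.001 CPM in the mutants. It spanned 5.47-fold among the controls, the widest ratio of the 4 factors, and its log2 fold change of -0.58 (SE 0.62) became 0.41 without control replicate 1. Irf1, a factor of the interferon gamma response added here after its values were seen, behaved otherwise, with 9.61, 6.93 and 7.96 CPM in the controls and 9.25, 11.5 and 7.69 CPM in the mutants. Its controls spanned 1.39-fold, its groups overlapped, and its log2 fold change was 0.21 (edgeR adjusted p = 0.899).

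Sensors of viral nucleic acid followed the same order of animals. Ifih1, which codes for the long double-stranded RNA sensor MDA5, had 13.5, 5.21 and 8.92 CPM in the controls and 7.98, 10.9 and 10.8 CPM in the mutants. Ddx58, which codes for the sensor RIG-I, had 10.4, 5.44 and 6.28 CPM in the controls and 5.60, 6.28 and 8.60 CPM in the mutants. All mutant values of both genes lay inside the controls' range, and all 4 sensors were highest in control replicate 1 and lowest in control replicate 2. Dhx58, the regulator LGP2 of those sensors, had 2.85, 0.521 and 1.17 CPM in the controls and 1.03, 1.05 and 2.06 CPM in the mutants. Zbp1, a sensor of left-handed nucleic acid that can start necroptosis, had 2.67, 0.317 and 0.814 CPM in the controls and 0.952, 1.60 and 0.967 CPM in the mutants. Zbp1 spanned 8.42-fold among the controls against 1.68-fold among the mutants, and Dhx58 5.46-fold against 2.00-fold. Log2 fold changes of the 4 sensors ran from -0.13 to 0.10, and the smallest edgeR adjusted p was 0.968.

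The 2′-5′ oligoadenylate synthetase (OAS) family makes the second messenger that activates the antiviral nuclease RNase L. Oas1a had 3.85, 0.725 and 1.78 CPM in the controls and 1.37, 1.30 and 0.942 CPM in the mutants. Oas2 had 8.32, 1.22 and 2.42 CPM in the controls and 2.41, 2.62 and 2.32 CPM in the mutants. In both genes the mutants lay close together inside the range of the controls, with a ratio of 1.46 and 1.13 among them against 5.30 and 6.80 among the controls. The related Oasl1, a regulator of IRF7 translation, had 3.12, 0.430 and 0.814 CPM in the controls and 0.397, 0.937 and 1.40 CPM in the mutants. Oasl2 had 18.7, 2.74 and 6.25 CPM in the controls and 5.02, 7.50 and 9.14 CPM in the mutants. Control replicate 1 was again highest in each, and it was the highest library in all 5 genes of the family. All 5 log2 fold changes were below 0, with a median of -0.70 and an adjusted p of 0.838 at the smallest by edgeR, and without control replicate 1 the median was 0.42 with 4 of 5 above 0. Oas3 had the lowest value, -1.23 (SE 0.85), which became 0.27 without control replicate 1.

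The IFIT proteins bind viral RNA and block its translation, and their genes had the widest spread. Ifit1 (ENSMUSG00000034459) had 24.7, 1.65 and 4.20 CPM in the controls and 3.60, 12.1 and 7.94 CPM in the mutants. Ifit3 had 31.1, 2.15 and 6.48 CPM in the controls and 7.64, 12.9 and 12.7 CPM in the mutants. For both genes the 3 mutants lay inside the range of the controls, which was 14.9-fold in Ifit1 and 14.4-fold in Ifit3. Ifit2 had 20.3, 4.92 and 7.17 CPM in the controls and 7.45, 11.8 and 14.4 CPM in the mutants, with the same order of controls and a span of 4.13-fold. Ifit3b, a near copy of Ifit3, had 11.5, 1.29 and 2.82 CPM in the controls and 10.04, 12.5 and 4.28 CPM in the mutants. Here mutant replicate 2 was highest, and mutant replicate 1 stood near control replicate 1. Of the sequence windows of 61 bases, the read length, 46.6% in Ifit3 and 40.5% in Ifit3b occur in the other gene, and multimapping read pairs were not counted, so the split between the 2 genes is uncertain. The same holds for Oas1a, with 52.5% of its windows shared, mostly with Oas1g, and to a lesser degree for Gbp7 (12.0%), Rtp4 (11.1%), Igtp (9.88%) and Ifit1 (6.24%). Log2 fold changes were -0.37 (SE 0.97) for Ifit1, 0.055 (SE 0.54) for Ifit2, -0.25 (SE 0.87) for Ifit3 and 0.78 (SE 0.80) for Ifit3b, with edgeR adjusted p = 0.904 at the smallest. Without control replicate 1 the 4 values were 1.43, 0.89, 1.36 and 2.12, and none passed the adjusted threshold.

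**Figure D2:**
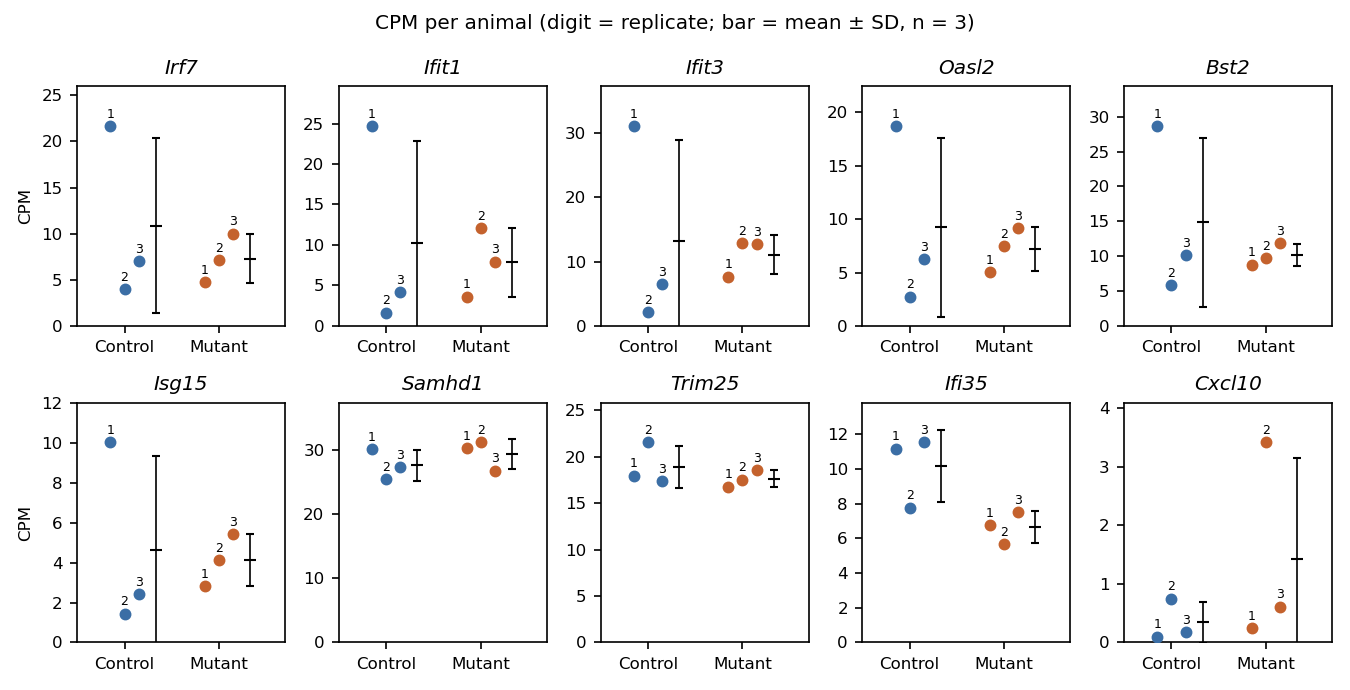
CPM of 10 of the genes in each animal (points with replicate numbers, controls in blue and mutants in orange), with the group mean ± SD as bars (n = 3) that stop at 0. Control 1 stands far above control 2 in Irf7, Ifit1, Ifit3, Oasl2, Bst2 and Isg15, the 6 animals are close together in Samhd1 and Trim25, the groups do not overlap in Ifi35, and mutant 2 is alone at the top in Cxcl10.

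Among the antiviral effectors, wide and narrow genes stood side by side. Bst2, whose product tetherin holds budding virus on the cell surface, had 28.7, 5.89 and 10.1 CPM in the controls and 8.80, 9.73 and 11.8 CPM in the mutants. Its mutants lay inside the controls' range, which was 4.87-fold, and its log2 fold change was -0.56 (SE 0.54, edgeR adjusted p = 0.901). Rsad2, which codes for viperin, had 23.1, 12.1 and 6.74 CPM in the controls and 10.2, 13.4 and 17.2 CPM in the mutants, with control replicate 3 lowest instead of control replicate 2. Samhd1 (ENSMUSG00000027639), a nucleotide hydrolase that starves retroviruses of building blocks, had 30.2, 25.5 and 27.3 CPM in the controls and 30.3, 31.2 and 26.8 CPM in the mutants. Samhd1 spanned only 1.18-fold among the controls, the least of the 41, and its log2 fold change of 0.091 had a standard error of 0.13. The GTPase gene Mx1, at 3 read pairs in control replicate 2, is at the limit of counting. The remaining effectors, Mx2, Isg20 and Eif2ak2 (the kinase PKR), had overlapping groups and log2 fold changes of -0.34, 0.25 and 0.17.

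Isg15, the ubiquitin-like protein that is attached to viral and host proteins, is named after its values were seen. It had 10.04, 1.45 and 2.42 CPM in the controls and 2.83, 4.13 and 5.45 CPM in the mutants, a span of 6.92-fold among the controls with the mutants inside it. The log2 fold change was -0.16 (SE 0.70, edgeR adjusted p = 0.982) and 1.09 without control replicate 1. The ligases and ADP-ribosyltransferases around it were steadier. Trim25, the ubiquitin ligase that activates RIG-I, had 17.96, 21.5 and 17.4 CPM in the controls and 16.8, 17.6 and 18.6 CPM in the mutants. Dtx3l, the ligase partner of PARP9, had 17.3, 14.3 and 16.2 CPM in the controls and 13.2, 16.3 and 12.9 CPM in the mutants. In both genes the groups overlapped and the highest animal was no more than 1.26-fold above the lowest within a group. Parp14, an ADP-ribosyltransferase, had 23.1, 10.8 and 14.1 CPM in the controls and 13.8, 18.2 and 22.5 CPM in the mutants, with the order of controls seen in the IFIT genes. Over the 6 genes of this role, which also hold Usp18 and Parp9, the ratio among controls had a median of 1.69.

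The interferon-inducible GTPases, which attack the vacuoles of intracellular pathogens, held genes of several patterns. Gbp7 had 29.4, 8.59 and 33.2 CPM in the controls and 12.6, 22.3 and 21.8 CPM in the mutants, with control replicates 1 and 3 high and control replicate 2 alone low. Irgm1 ran the other way, with 23.8, 33.5 and 17.8 CPM in the controls, control replicate 2 being the highest of all, and 20.9, 24.01 and 17.1 CPM in the mutants. Igtp had 13.6, 12.8 and 9.92 CPM in the controls and 15.04, 26.6 and 8.32 CPM in the mutants. Mutant replicate 2 stood highest in Igtp, and the mutants spanned 3.20-fold against 1.38-fold among the controls. The groups of all 3 genes overlapped, and their log2 fold changes were -0.33 (SE 0.49), -0.28 (SE 0.25) and 0.46 (SE 0.39) for Gbp7, Irgm1 and Igtp. The value for Igtp turned to -0.055 without mutant replicate 2, and was -0.54 in the males alone. Gbp2 and Gbp3 spanned 2.51-fold and 2.41-fold among the controls, with control replicate 1 highest.

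Ifi35 (ENSMUSG00000010358), which codes for a leucine-zipper protein that binds NMI, was the only gene of the 41 whose groups did not overlap (6.09% of all genes tested had every mutant below every control). It had 11.2, 7.77 and 11.5 CPM in the controls and 6.74, 5.68 and 7.51 CPM in the mutants. The log2 fold change was -0.61 (SE 0.21, unadjusted p = 0.0209, edgeR adjusted p = 0.653), so it did not pass. On strand-matched counts, which held 1.59 times as many read pairs of this gene, the log2 fold change was -0.53, and in the 4 males alone, with 1 mutant, it was -0.43. Strand-matched counts also exceeded the unstranded ones in Dhx58 (1.21 times), Irf1 (1.25 times) and Usp18 (1.26 times), and stayed below 1.2 times in the other genes. Ifi44 had 10.4, 2.18 and 2.49 CPM in the controls and 1.27, 1.74 and 4.28 CPM in the mutants, and Rtp4, a chaperone of membrane receptors, 11.7, 2.31 and 4.55 CPM in the controls and 4.39, 5.29 and 6.79 CPM in the mutants. Both had control replicate 1 far above the others, and their log2 fold changes of -1.04 and -0.17 became 0.051 and 0.68 without it. Ifi27 had 34.5, 29.5 and 26.1 CPM in the controls and 26.7, 23.8 and 26.7 CPM in the mutants, a narrow range with overlapping groups. Cxcl10, the chemokine that attracts activated T cells, is named after its values were seen. It had 0.0999, 0.748 and 0.178 CPM in the controls and 0.238, 3.42 and 0.611 CPM in the mutants. Mutant replicate 2 alone was high, control replicate 1 was the lowest library, and the log2 fold change of 2.02 had a standard error of 1.11 (edgeR adjusted p = 0.805). It was 0.30 without mutant replicate 2 and 3.32 without control replicate 2.

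**Figure D3:**
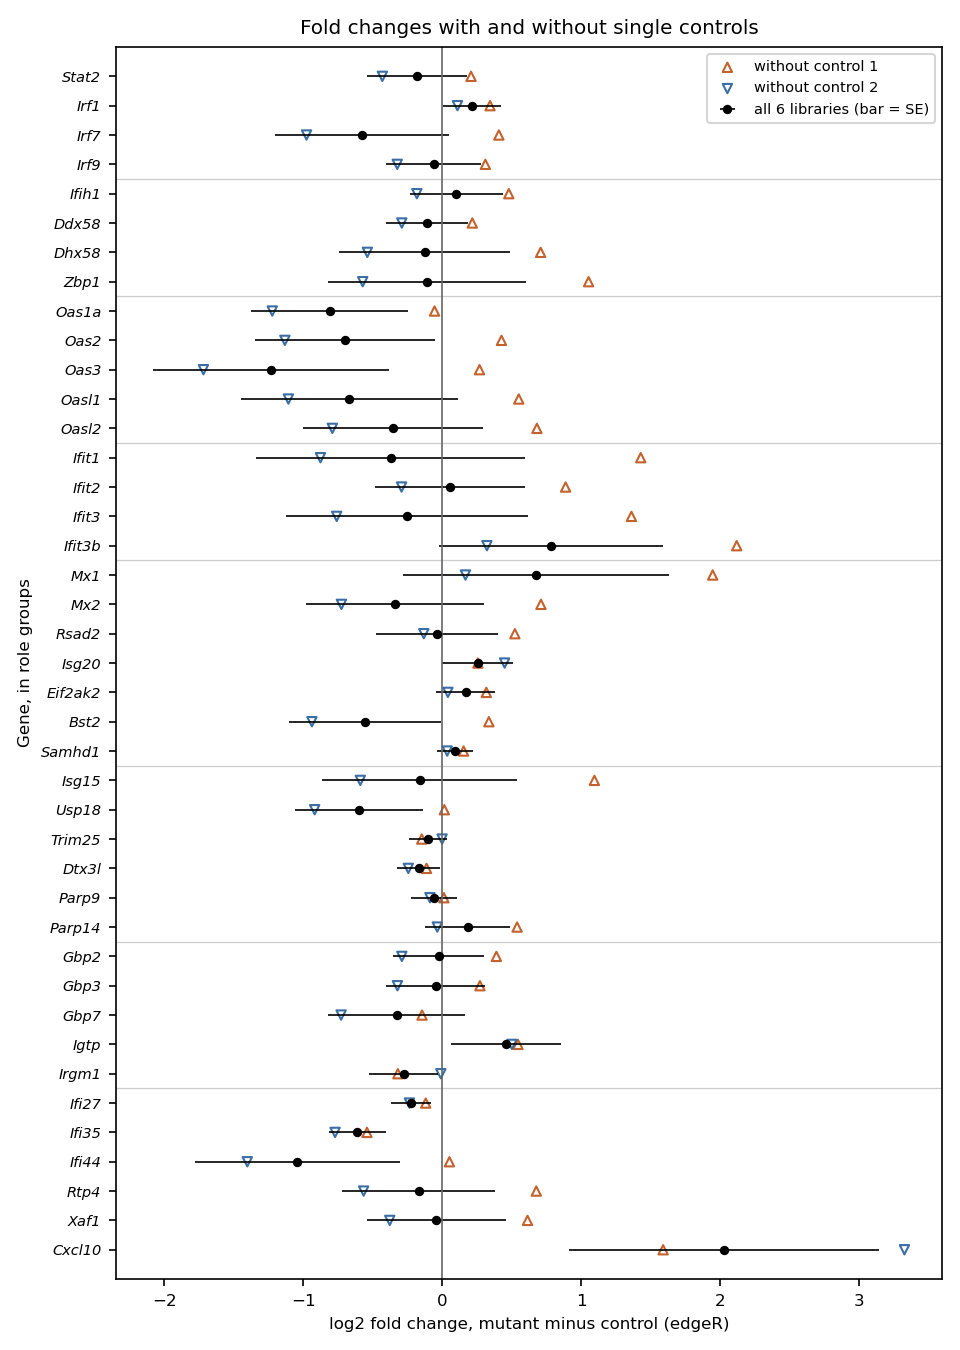
Log2 fold change of each gene, mutant minus control, by edgeR with all 6 libraries (black points, bars are 1 SE), without control 1 (orange upward triangles) and without control 2 (blue downward triangles). Most orange triangles lie right of 0 and most blue ones left of it, and Ifi35 and Samhd1 are among the genes whose 3 estimates lie close together.

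Mutant replicate 2, a female, was the highest library in 6 of the 41 genes, near the share over all genes tested (13.2%). These were Irf1, Ifit3b, Mx1, Samhd1, Igtp and Cxcl10. Socs3, a feedback inhibitor of JAK signalling, was also highest in mutant replicate 2. It had 6.97, 2.49 and 4.88 CPM in the controls and 9.94, 25.3 and 3.54 CPM in the mutants. Cxcl9, the interferon gamma-induced chemokine related to Cxcl10, had 0.549, 0.997 and 0.509 CPM in the controls and 1.19, 2.51 and 1.53 CPM in the mutants. Every mutant lay above every control in Cxcl9, while groups did not overlap, in either direction, in 12.1% of all genes tested. The Cxcl9 log2 fold change of 1.34 (SE 0.42) did not pass (edgeR unadjusted p = 0.0143, edgeR adjusted p = 0.572).

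Genes upstream of the set gave no call by edgeR either, where 0.199% of all genes tested passed. Of 10 interferon genes looked up, 8 had 0 counts over the 6 libraries, which allows up to 3 counts, and Ifnb1 and Ifng had 1 count each. Of the 9 receptors and kinases, 7 were tested and 0 passed. The receptor chain Ifngr2 had 73.5, 67.7 and 107 CPM in the controls and 107, 106 and 99.9 CPM in the mutants. The kinase genes Jak1 and Jak2 had log2 fold changes of -0.37 (SE 0.21) and -0.35 (SE 0.21), with edgeR adjusted p = 0.814 for both. Of 10 regulators of the signal 0 passed, with log2 fold changes of -0.33 for the phosphatase Ptpn2, 1.44 for Socs3 and 0.70 for its relative Socs1. Of 10 genes that sense nucleic acid ahead of interferon 0 passed, and Myd88, the adaptor of Toll-like receptors, had the smallest p (log2 fold change 0.56, SE 0.24, edgeR adjusted p = 0.720). The adaptors Mavs, downstream of RIG-I and MDA5, and Sting1, downstream of the DNA sensor cGAS, had 0.26 and 0.39. Control replicate 1 was the highest library in 1 gene of each of these 3 lists (19.8% of all genes tested). Control replicate 2 was the lowest in 1 of the receptors and kinases, 4 regulators and 1 sensing gene (20.6% of all). The median regulator stood at -0.36 in control replicate 2 on the log2(CPM + 0.1) scale, relative to the 6-library mean.

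A second list of 35 interferon-stimulated genes, none of them among the 41, showed the same order of libraries. Control replicate 1 was highest in 21 of the 35 and control replicate 2 lowest in 21 (19.8% and 20.6% of all genes tested), and the median gene stood at 0.53 and -0.60 there on the log2(CPM + 0.1) scale. Of the 35, 0 passed the adjusted threshold by edgeR (0.199% of all genes tested). Their log2 fold changes had a median of -0.12, with 22 below 0 (50.2% of all). At an unadjusted p below 0.05 by edgeR there were 2 of the 35, near the share over all genes tested (6.94%). These were Cxcl9 above and Gbp4 below 0. The guanylate-binding protein gene Gbp4 had 7.89, 9.86 and 24.5 CPM in the controls and 6.13, 8.63 and 5.17 CPM in the mutants, with control replicate 3 alone high. Tor3a, an interferon-responsive ATPase gene, had 12.4, 11.9 and 15.1 CPM in the controls and 9.78, 9.04 and 11.96 CPM in the mutants, with every mutant except replicate 3 below every control. Ifi202b, described above for its absence from the mutants, had its controls in the order 1, 3, 2 as well.

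**Figure D4:**
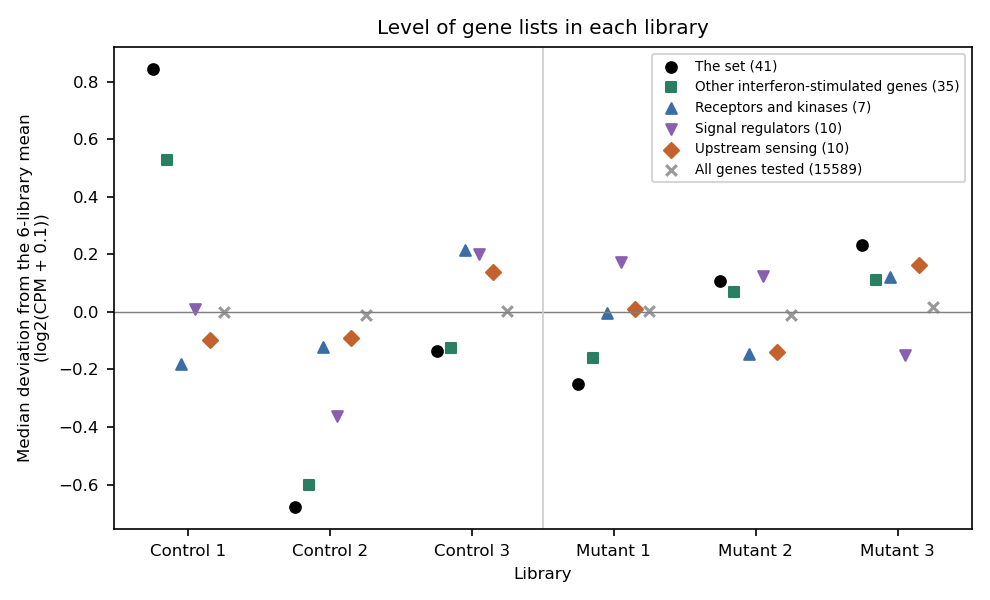
Median over each gene list of log2(CPM + 0.1) minus the gene's 6-library mean, by library (symbols by list, number of genes in brackets, "the set" being the 41 interferon-stimulated genes). The 41 genes and the 35 other interferon-stimulated genes are high in control 1 and low in control 2, while the receptors, regulators, sensing genes and all genes tested stay between -0.36 and 0.22 in every library. For all genes tested, the scaling of library sizes keeps the median near 0 by design.

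Promoter class and spread between controls could be set side by side for the 31 genes with a promoter entry. The 18 with an ISRE core had a median ratio of highest to lowest control of 3.64, from 1.38 to 14.9, and 10 of them reached 3-fold. The 13 without had a median of 2.42, from 1.18 to 7.25, and 6 reached 3-fold. Limited to a mean of at least 1 CPM, which leaves out Oas3 and Cxcl10, the 16 with the core had a median of 3.01 with 8 reaching 3-fold, and the 13 without were unaffected. The ranges overlapped widely, with Igtp and Eif2ak2 narrow despite an ISRE core and Oasl1 and Oasl2 wide without a match. Over all tested genes above the same minimum and with a promoter entry, the 346 with the core had a median ratio of 1.44, with 10.4% reaching 3-fold, and the 9337 without had 1.38, with 5.99%. Split by the GAS core instead, with no minimum CPM, the 10 of the 31 with it had a median ratio of 1.59. They ran from 1.18 to 5.30, and 4 reached 3-fold. The 21 without had a median of 3.63, from 1.21 to 14.9, and 12 reached 3-fold. Irf1 and Samhd1, shown above for their GAS cores, are narrow, but Oas1a (5.30-fold) and Ifit2 (4.13-fold) hold a GAS core too. The 10 genes with no promoter entry, Dhx58, Zbp1, Oas2, Mx1, Mx2, Usp18, Parp9, Parp14, Ifi27 and Rtp4, are outside these comparisons.

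**Figure D5:**
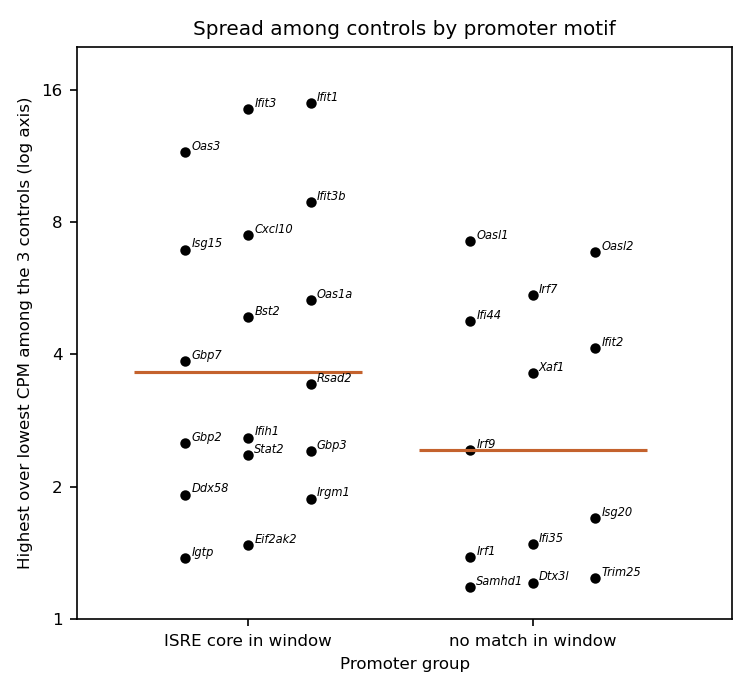
Ratio of the highest to the lowest control CPM (log axis) of the 31 genes with a RefSeq promoter entry, split by whether the ISRE core lies in the window; points are genes, placed sideways for legibility, and lines are medians. Both classes hold narrow and wide genes. The 5 highest ratios are in genes with the core, but Oas3 and Cxcl10 among them have a mean below 1 CPM. With those left out, Oasl1 (7.25), which has no match, comes next after Ifit1, Ifit3 and Ifit3b.

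Other cell types moved with these libraries in part. Summed over its 6 markers, the neutrophil level was 27.1, 12.7 and 8.26 CPM in the controls and 8.56, 2.76 and 3.21 CPM in the mutants, and Ly6g, its most specific marker, had 10, 2 and 3 counts in the controls and 0 in each mutant. Control replicate 1 was thus highest in neutrophil markers as in the interferon-stimulated genes, but control replicate 2, lowest in the latter, stood second in the former. The 5 tested neutrophil markers had a median log2 fold change of -1.73. By edgeR 0 of them passed the adjusted threshold (0.199% of all genes tested) and 4 had an unadjusted p below 0.05 (6.94% of all). The 8 macrophage markers summed to 118, 110 and 171 CPM in the controls and 216, 127 and 173 CPM in the mutants. The 4 markers of plasmacytoid dendritic cells, a main source of type I interferon, summed to 0.499 to 1.11 CPM over all libraries. Their sum was lowest in control replicate 1, and 2 of the 4 passed the filter on low counts. The 7 markers of T and NK cells summed to 1.60 to 1.75 CPM in the controls and 0.763 to 1.32 CPM in the mutants. Only 1 of these 7 passed the filter on low counts (edgeR adjusted p = 0.870), so the sum rests on few counts. The 4 B cell markers summed to 0.799, 2.49 and 2.67 CPM in the controls and 3.09, 1.65 and 0.967 CPM in the mutants, lowest in control replicate 1. The 5 endothelial markers summed to 225, 244 and 235.4 CPM in the controls and 274, 253 and 351 CPM in the mutants. These sums did not overlap between the groups, the mutants being higher (12.1% of single genes tested did not overlap, in either direction). All 5 had log2 fold changes above 0, with a median of 0.26, and 0 passed by edgeR (smallest adjusted p = 0.530, for Vwf). The part of these cells, of the mitochondrial share and of multimapping pairs in the level of the interferon-stimulated genes was not tested. In whole muscle, fewer cells of a type and less RNA per cell cannot be told apart.

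All 3 controls were male, as was mutant replicate 3, and the part of sex in the level of these genes was not tested. In the 4 males alone, 3 controls and 1 mutant, the median log2 fold change of the 41 genes was -0.054 with 25 below 0. With sex as a covariate, which again rests on that mutant, it was -0.056 with 25 below 0. By edgeR both fits called 0% of all genes, so that 0 of the 41 passed there says nothing about them. In counts simulated for this comparison over 15589 genes, 19.4% of 2-fold, 72.5% of 4-fold and 90.6% of 8-fold differences were recovered. Of the 133 calls, 12 fell on genes simulated without a difference. The differences were placed on genes drawn at random from all those tested, so the rates are not those of the 41. The 41 were more spread between controls (median ratio of highest to lowest 3.63, against 1.47 over all genes tested).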

How the data were processed

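Libraries were poly(A)-selected and directional, with paired reads of 61 bp, per the labels' protocols. The deposited gene counts are raw, unstranded in the matrix and split by strand in the files of single libraries. The submitters' processing notes name STAR 2.7.11b, DESeq2 1.50.2 and the build GRCm39. Per the file headers, a deposited DESeq2 table holds p-values, Wald statistics (a score), log2 fold changes with their errors and the mean normalized signal. The sources used here do not give the annotation release.

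Entries that name no gene (18.5% to 22.3% of pairs) were kept out. The main test was edgeR 4.0.16 (TMM, filterByExpr with a minimum count of 10, robust quasi-likelihood F-test, no covariate), with Benjamini-Hochberg adjustment over 15589 genes and a threshold of 0.05. DESeq2 1.42.0, limma 3.58.1 (voom), other scalings and filters, strand-matched counts, sex, a replicate block and leaving out each library were alternatives. CPM uses TMM-scaled library sizes, and deviations use a pseudocount of 0.1 CPM. A count of 3 corresponds to 0.0680 to 0.0827 CPM. The fit was tested on simulated data.

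The 41 genes, the other gene lists and the rule for naming were chosen with earlier results of these data known, so no list was tested as a set. Values by library are given for 31 of the 41. The rule took 28: in each role the 3 with the highest mean, those whose groups do not overlap, and the 6 with the widest range over the libraries where the mean reached 1 CPM. Of the other lists, up to 3 genes with the smallest p are named. Irf1, Isg15 and Cxcl10 were added, and such exceptions are marked as chosen after their values were seen. Coordinates are those of the RefSeq promoters (GRCm38.p6) only. The values of 1 gene outside the 41 are not reported here.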

Additional observations from a re-analysis of the deposited data

How the results depend on the processing

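None of the 41 genes passed the adjusted threshold under the alternatives run (35 were tested with a filter of 1 CPM in 3 libraries), and 0 to 5 did at an unadjusted p below 0.05, the 5 without control replicate 2. The count over all genes was less stable: 31 as reported, 184 with DESeq2, 87 with DESeq2 and sex as a covariate (added after the data were seen), 79 with no filter on low counts, 11 with the replicate block, and 0 with edgeR in the males alone (594 at an unadjusted p below 0.05) or with sex as a covariate (882). Leaving out 1 library gave 6 to 49 genes (49 without control replicate 2, 7 and 6 without mutant replicates 1 and 2). Dysf kept its direction, at -2.38 in the males alone and -2.38 with sex as a covariate, where it no longer passed (both set the controls against 1 mutant, replicate 3), and at -2.86 to -2.35 with 1 library left out, where it did not pass without any one of the mutants. Groups did not overlap in 7 of the 41 in the males alone (48.4% of all genes) and in 1 to 6 with 1 library left out. The named genes gave 474 values over 17 alternatives, of which 42 moved by more than 1 SE and 73, in 21 genes, had the other sign. The labels do not say whether replicate numbers pair the animals. Deviations of a control and a mutant of the same number correlated at 0.24, -0.07 and 0.22, and those of different numbers at -0.29 to 0.19. These values do not settle whether the numbers pair the animals. With the replicate block 0 of the 41 passed, with a median log2 fold change of 0.06 (0.06 by limma-voom too, against -0.13 in the main fit). Mx1, Mx2, Oas3 and Cxcl10, each with a mean below 1 CPM, rest on few counts.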
